A study of Mus musculus with 4 samples.

Results

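Mast cell proteases and the IgE receptor chains were followed on 4 dual-color whole mouse genome arrays as a set of 8 genes, out of 27343 names on the array. The set was *Cma1*, *Mcpt1*, *Mcpt2*, *Mcpt4*, *Tpsb2*, *Cpa3*, *Fcer1a* and *Ms4a2*, and every gene probe carrying any of these names in the array files was taken. This gave 9 probes, 2 of them for *Cma1*. The set was chosen by its function and on the log2 ratios of *Cma1*, which had been seen to be higher in both *Rspo3* KO mice than in their paired controls, so the values of these genes in that comparison are given as a description, with no p-value.

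For the *Rspo3* KO comparison, each of 2 arrays set colon RNA from 1 *Myh11CreErt2/Rspo3* fl/fl mouse (*Rspo3* KO) against that from 1 *Myh11CreErt2/Rspo3* +/+ mouse (control). The dyes were exchanged between arrays, so 2 pairs of mice are the replicates, and the spread between pairs includes any dye difference. A p-value here rests on that spread and, with more weight, on a spread pooled over all measured genes. The mice were C57BL/6 males aged 6 to 8 weeks, both genotypes carried the tamoxifen-inducible Cre, and the KO colon was taken 2 weeks after tamoxifen (4 mg per 25 g body weight). The Cre is driven by *Myh11*, so it deletes the Wnt enhancer *Rspo3* in smooth muscle cells and myofibroblasts. For the other comparison, Axin2+ and Axin2- epithelial cells of *Axin2CreErt2/Rosa26-tdTomato* mice were sorted by tdTomato 24 h after tamoxifen, and pools from 3 mice were hybridised against each other on 2 arrays with reversed dyes. Since both of these arrays repeat the same pair of RNA pools, they stand for 1 replicate. For the *Rspo3* KO arrays the labels give distal colon, whereas the methods give colon and in another place colon epithelium, and which of these was used cannot be settled from the sources used here.

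Mast cells are resident cells of connective tissue and mucosa that store proteases in granules and release them when antigen cross-links IgE on their surface. Mouse mast cells are commonly divided into a connective tissue type, found in skin and in the submucosa and muscle of the gut, and a mucosal type, found in the epithelium and lamina propria. The chymases *Cma1* and *Mcpt4*, the tryptase *Tpsb2* and the mast cell carboxypeptidase *Cpa3* are typical of the connective tissue type, whereas the chymases *Mcpt1* and *Mcpt2* are typical of the mucosal type. *Fcer1a* and *Ms4a2* encode the alpha and beta chains of the high-affinity IgE receptor. Basophils share *Cpa3*, *Fcer1a* and *Ms4a2* with mast cells. In colon RNA, a change in the number of mast cells cannot be told apart from a change in RNA per mast cell.

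The 2 probes of *Cma1* read different stretches of its transcript, and that of *Fcer1a* is the only probe of the 2 receptor chains in the set that was well above background. The array files place *Cma1* probe A_51_P514029 at chr14:56561491-56562550 on the minus strand of mm9, from base 323 of its RefSeq transcript. This position covers 1060 bases of genome for a probe of 60 bases, so the probe spans an intron. *Cma1* probe A_51_P514035 lies at chr14:56560454-56560513, nearer the transcript's end, from base 850. The *Fcer1a* probe lies at chr1:175152865-175152924 on the minus strand of mm9, from base 382 of its transcript. The sequences of the intron-spanning *Cma1* probe and of the *Fcer1a* probe are shown because the former gives *Cma1* a reading apart from the brighter probe that stands for the gene, and the latter is the only probe of *Fcer1a*.
Cma1 probe A_51_P514029: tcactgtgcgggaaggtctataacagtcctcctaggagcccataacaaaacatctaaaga
Fcer1a probe A_51_P429770: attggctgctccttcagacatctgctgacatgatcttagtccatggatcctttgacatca

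RefSeq promoters of assembly GRCm38.p6 were found for 6 of the 8 genes and are named here for the 250 bases before the transcript start. *Mcpt2* and *Tpsb2* had no entry. GATA factors, among them GATA2 in mast cells, bind the letters GATAA, and a search on both strands found GATAA or its reverse complement TTATC in all 6 promoters, against 22.6% of 32851 promoters of the same length. *Cma1*, *Mcpt1*, *Mcpt4*, *Cpa3* and *Fcer1a* held 1 match each and *Ms4a2* held 3. The longer TGATAAG occurred in *Mcpt1* and *Mcpt4* and in 2.05% of all promoters. The E-box letters CANNTG occurred in *Cma1*, *Cpa3* and *Fcer1a*, and in 66.2% of all promoters. A match is a string of letters and not a shown binding site. The promoters of the 4 genes measured in the *Rspo3* KO colon, and that of *Mcpt1* beside *Mcpt4*, are shown 5′ to 3′ on the gene's strand with GATAA or TTATC in capitals.
Cma1, chr14:55944676-55944925, minus strand: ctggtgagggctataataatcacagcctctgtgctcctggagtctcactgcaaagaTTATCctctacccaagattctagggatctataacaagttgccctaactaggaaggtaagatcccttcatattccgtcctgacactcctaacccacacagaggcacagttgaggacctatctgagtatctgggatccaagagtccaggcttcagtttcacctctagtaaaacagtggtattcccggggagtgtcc
Mcpt4, chr14:56062311-56062560, minus strand: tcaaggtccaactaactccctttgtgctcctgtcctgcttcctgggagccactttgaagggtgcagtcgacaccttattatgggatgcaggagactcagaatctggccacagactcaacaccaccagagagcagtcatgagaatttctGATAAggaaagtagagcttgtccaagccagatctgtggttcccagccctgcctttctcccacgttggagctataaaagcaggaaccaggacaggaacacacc
Mcpt1, chr14:56017714-56017963, plus strand: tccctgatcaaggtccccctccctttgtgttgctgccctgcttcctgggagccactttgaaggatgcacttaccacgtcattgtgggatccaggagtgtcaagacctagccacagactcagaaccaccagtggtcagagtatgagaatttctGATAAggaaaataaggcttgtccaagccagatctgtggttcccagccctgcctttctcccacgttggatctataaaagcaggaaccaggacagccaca
Cpa3, chr3:20242182-20242431, minus strand: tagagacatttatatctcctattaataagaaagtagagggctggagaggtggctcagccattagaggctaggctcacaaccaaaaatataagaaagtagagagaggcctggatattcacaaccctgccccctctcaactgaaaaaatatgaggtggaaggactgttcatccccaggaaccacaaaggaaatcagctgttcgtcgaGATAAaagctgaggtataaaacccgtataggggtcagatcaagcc
Fcer1a, chr1:173227230-173227479, minus strand: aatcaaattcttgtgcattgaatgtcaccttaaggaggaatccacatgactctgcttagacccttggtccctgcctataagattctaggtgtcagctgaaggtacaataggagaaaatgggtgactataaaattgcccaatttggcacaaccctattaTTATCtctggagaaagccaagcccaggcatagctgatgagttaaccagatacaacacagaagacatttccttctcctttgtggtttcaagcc

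The *Mcpt1* and *Mcpt4* promoters were near copies of each other, with 207 identical bases in 254 columns of a global alignment (81.5%). The GATAA of *Mcpt4* began 102 bases before the transcript start and that of *Mcpt1* 98 bases before it. All other pairs of the 6 promoters lay between 42.4% and 48.9%, and *Cma1* was 48.4% identical to *Mcpt4*.

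Per channel, 53.1% to 60.3% of gene spots exceeded background clearly, by the software's own criterion, and with 2 arrays per experiment the precision is limited. A log2 ratio above 0 means higher in *Rspo3* KO, or in Axin2+ cells. A gene counted as measured when, on each array of an experiment, at least 1 channel of its brightest probe met that criterion. This held for 15377 genes in the *Rspo3* KO experiment, where limma called 37 genes (0.241%) at an adjusted p under 0.05, 20 of them higher in KO (0.13%), and for 15887 genes in the Axin2 experiment. Across genes, the 2 *Rspo3* KO arrays correlated with r = 0.03 and the 2 Axin2 arrays with r = 0.92. *Rspo3* itself was near background. Its probe A_51_P428157 was above background on array 2 alone, with a log2 ratio of 0.17, and its other probe in no channel, so these arrays do not check the deletion.

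*Cma1*, *Mcpt4* and *Cpa3* were more than 1.5-fold higher in *Rspo3* KO than in control mice, with the same direction in both pairs. The chymase *Cma1* cleaves peptides such as angiotensin I. On array 1, probe A_51_P514035 gave a raw signal of 1652 over a local background of 90 in the KO channel and of 129 over 27 in the control channel, before the dyes were balanced. On array 2, with the dyes reversed, it gave 466 over 24.5 in the KO channel and 345 over 72.5 in the control channel. After background correction, loess and quantile scaling between the 2 arrays, the log2 signal was 10.07 in KO and 8.23 in control on array 1. On array 2 it was 9.42 in KO and 7.56 in control. Both KO mice lay above both controls, and all 4 channels were well above background. The log2 ratio was thus 1.84 in the first pair and 1.86 in the other, with a mean of 1.85 ± 0.01 (SD, n = 2 pairs), or 3.61-fold.

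The intron-spanning *Cma1* probe gave the same direction with smaller ratios. Its log2 signal was 8.83 in KO and 7.43 in control on array 1, and 8.10 in KO and 6.66 in control on array 2. Here too both KO channels lay above both control channels, and all 4 were well above background. The log2 ratios were 1.40 and 1.44, a mean of 1.42 ± 0.03 (SD, n = 2 pairs), or 2.67-fold. The feature extraction software's log2 ratios were 2.47 and 2.47 for this probe and 2.38 and 2.40 for A_51_P514035, so the probes' order depends on the processing. With normexp fitted to all spots, background outliers included, the mean log2 ratio of A_51_P514035 was 1.23.

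*Mcpt4* encodes the chymase thought to be closest in activity to human chymase. Its log2 signal was 8.79 in KO and 7.67 in control on array 1, and 8.10 in KO and 7.02 in control on array 2. Both KO channels lay above both control channels, and all 4 were well above background. The log2 ratios were 1.12 and 1.07, a mean difference of 2.14-fold with an SD of 0.04 on the log2 scale (n = 2 pairs).

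*Cpa3*, which trims peptides from their carboxyl end in the granule, was well above background only in the *Rspo3* KO channels. Its log2 signal was 7.57 in KO and 6.72 in control on array 1, and 7.30 in KO and 6.18 in control on array 2. The log2 ratios were 0.85 and 1.12. Since neither control was above background, the control was set to at least the array's lowest signal above background. KO was then 1.95-fold higher on the mean of both arrays. With normexp fitted to all spots the mean log2 ratio was 0.59, so 1.95-fold is not a lower bound over settings. This gene counted as measured only through the KO channels, so a ratio above 0 was built into its being measured. The same holds for *Fcer1a*, the chain that binds IgE. *Fcer1a* had a log2 signal of 6.84 in KO and 6.53 in control on array 1, and of 6.71 in KO and 6.26 in control on array 2. Its log2 ratios were 0.31 and 0.45, a mean of 1.30-fold, and setting the control in the same way left this fold unchanged. With normexp fitted to all spots the mean log2 ratio of *Fcer1a* was 0.24.

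**Figure D1:**
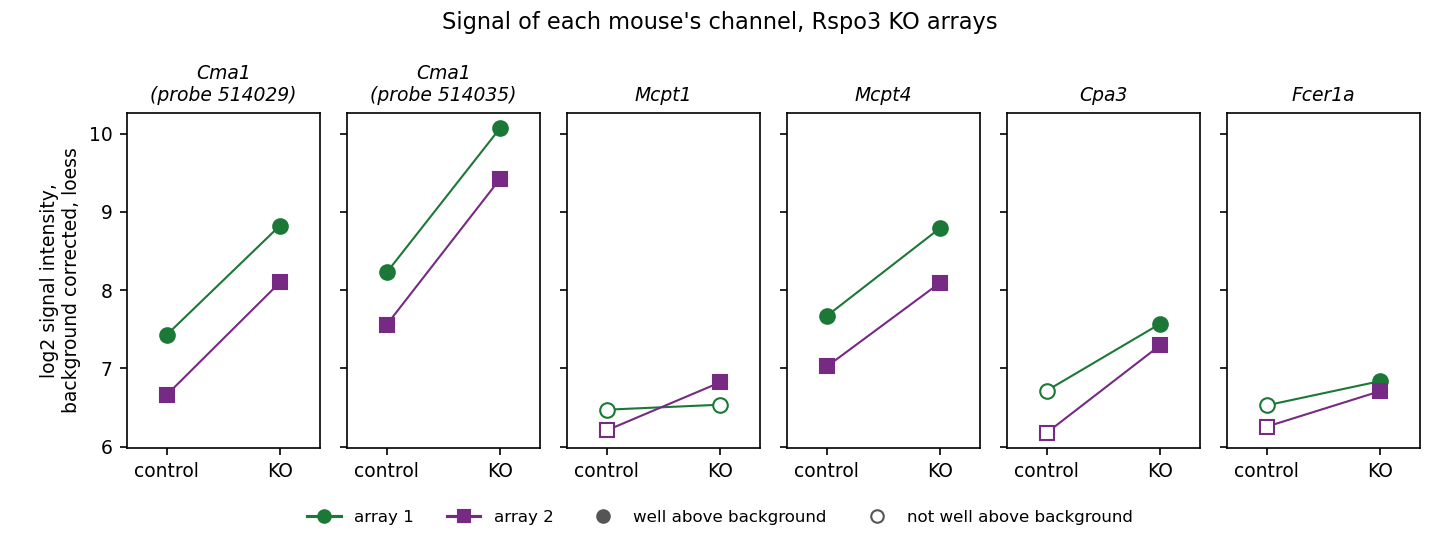
Log2 signal intensity of each control and *Rspo3* KO channel, after background correction, loess and quantile scaling between arrays, for the probes above background in at least 1 channel. Lines join the channels of an array, and open symbols are channels not well above background. *Cma1* and *Mcpt4* are filled throughout and rise on both arrays, *Cpa3* and *Fcer1a* are filled in KO only, and *Mcpt1* is filled in the KO channel of array 2 only. Heights are not comparable between probes.

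The mucosal chymases and the remaining members had little or no signal. *Mcpt1*, the main chymase of mucosal mast cells, was above background only in the KO channel of array 2. Its log2 signal was 6.54 in KO and 6.47 in control on array 1, and 6.82 in KO and 6.21 in control on array 2. The log2 ratio was therefore 0.06 in the first pair and 0.61 in the second, and the pairs differed by more than the ratio of the first. *Mcpt2*, *Tpsb2* and *Ms4a2* were above background in none of the 4 channels. Their log2 ratios were -0.02 and 0.19 for *Mcpt2*, 0.25 and 0.07 for *Tpsb2*, and 0.16 and -0.00 for *Ms4a2*, and neither channel gives a level for them. The receptor's beta chain and the main tryptase of connective tissue mast cells were thus not well above background on these arrays.

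Over all 8 genes, whether or not above background, 6 had a log2 ratio above 0 on both *Rspo3* KO arrays, none was below 0 on both, and 2 (*Mcpt2* and *Ms4a2*) had opposite signs. Among all measured genes, 20.3% were above 0 on both arrays. 3 members passed 1.5-fold upward on the mean with the same sign on both arrays, as did 1.85% of all measured genes and 1.09% of all 27122 genes with no filter on dim probes. Since the rule used this contrast, nothing is read from these counts. The median log2 ratio of the 8 was 0.36, and that of all measured genes was -0.01.

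The size of these ratios depended on the background treatment for the dim members. The software's log2 ratios were 1.62 and 1.68 for *Mcpt4*, 3.16 and 3.62 for *Cpa3*, 2.04 and 2.18 for *Fcer1a*, and 0.80 and 2.61 for *Mcpt1*. For *Tpsb2* they were 1.14 and 0.83. With these ratios 6 members passed 1.5-fold upward, as did 3.82% of all measured genes. The fold of *Cpa3* was 5.30 times as large as after normexp with an offset of 50, and that of *Cma1* probe A_51_P514035 1.45 times. The offset pulls ratios of dim spots toward 0, and the software's ratios of spots near background rest on small differences of intensities.

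**Figure D2:**
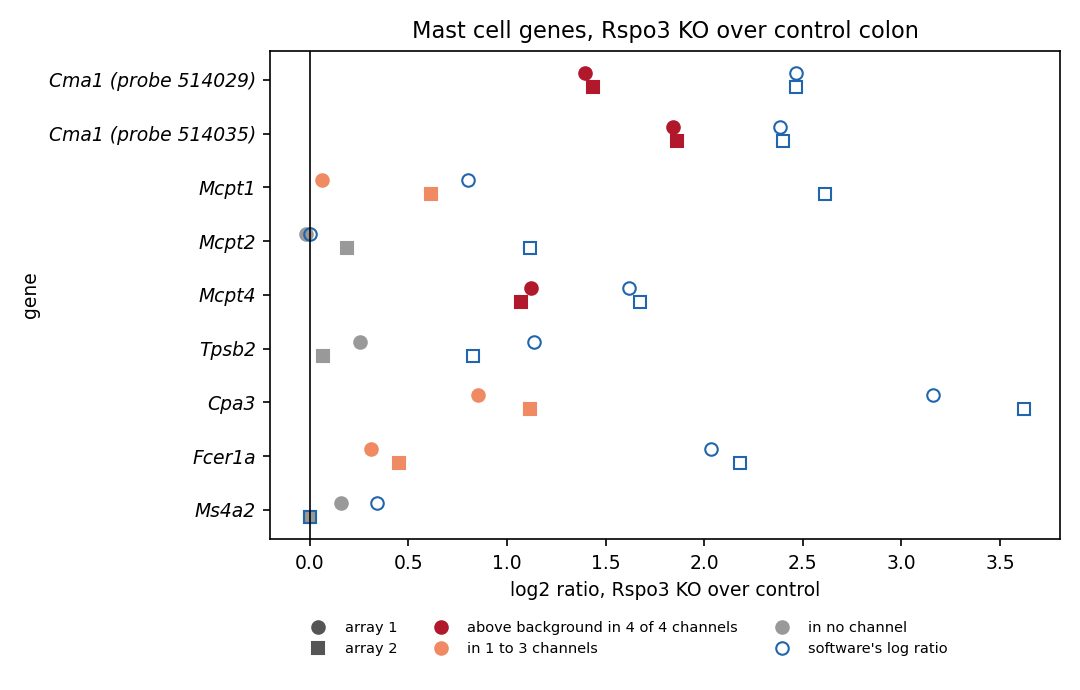
Log2 ratio of *Rspo3* KO over control for each of the 9 probes, circles for array 1 and squares for array 2. Filled symbols are ratios after normexp and loess, coloured by the number of channels above background, and open symbols are the software's ratios. *Cma1*, *Mcpt4* and *Cpa3* lie to the right of 0 under both, and the gap between filled and open symbols is widest for *Cpa3*.

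Limma called no mast cell gene outside the set. Of 43 listed mast cell and IgE receptor signalling genes outside the set, 35 were measured. 3 of the 35 had an unadjusted p under 0.05, as had 715 of all 15377 measured genes, and none of the 35 passed the adjustment. 1 of them passed 1.5-fold upward and 1 downward. *Kit*, the receptor for stem cell factor on which mast cells depend, had log2 ratios of -0.04 and -1.0. *Gata2*, a transcription factor of the lineage, had -1.21 and 0.09. *Hdc*, which makes histamine, had 0.70 and 0.21, both above 0. By limma, the adjusted p of each of these 3 genes was 1.0. *Fcer1g*, the signalling chain shared by several Fc receptors, had 0.14 and 0.47. *Kit* and *Gata2* are also made by other cells of the colon, so their levels are not a measure of mast cells alone.

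The gene past 1.5-fold upward was *Cma2*, a chymase gene next to *Cma1*, at 0.79 and 0.44 on the log2 scale (limma adjusted p = 0.938). It was above background in the KO channels only, and the array files list the RefSeq transcript of *Mcpt4* for the same probe, so its signal may include *Mcpt4* and is uncertain. With the software's ratios, of 2.40 and 1.83, limma called *Cma2* (adjusted p = 0.0168). The gene past 1.5-fold downward was *Smpx*, a muscle protein gene, with -0.67 and -1.19 (limma adjusted p = 0.45). *Tpsab1*, another tryptase that C57BL/6 mice are known to lack, was above background in no channel. Among 11 measured genes of lipid mediator and amine synthesis, 5 were above 0 on both arrays and 1 below, the median log2 ratio was 0.10, and limma called none, with 1 at an unadjusted p under 0.05. Over all 15377 measured genes, 715 had such an unadjusted p, 20.3% were above 0 on both arrays and 23.9% below. Among 12 measured genes of mast cell growth and recruitment, 3 were above 0 on both arrays and 4 below, the median was -0.08, and limma called none, with 1 at an unadjusted p under 0.05. In that list only *Il33*, an alarmin of stromal and epithelial cells, passed 1.5-fold, downward, with -0.27 and -1.21 (limma adjusted p = 0.938). *Kitl*, which encodes stem cell factor, had 1.08 and 0.06.

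**Figure D3:**
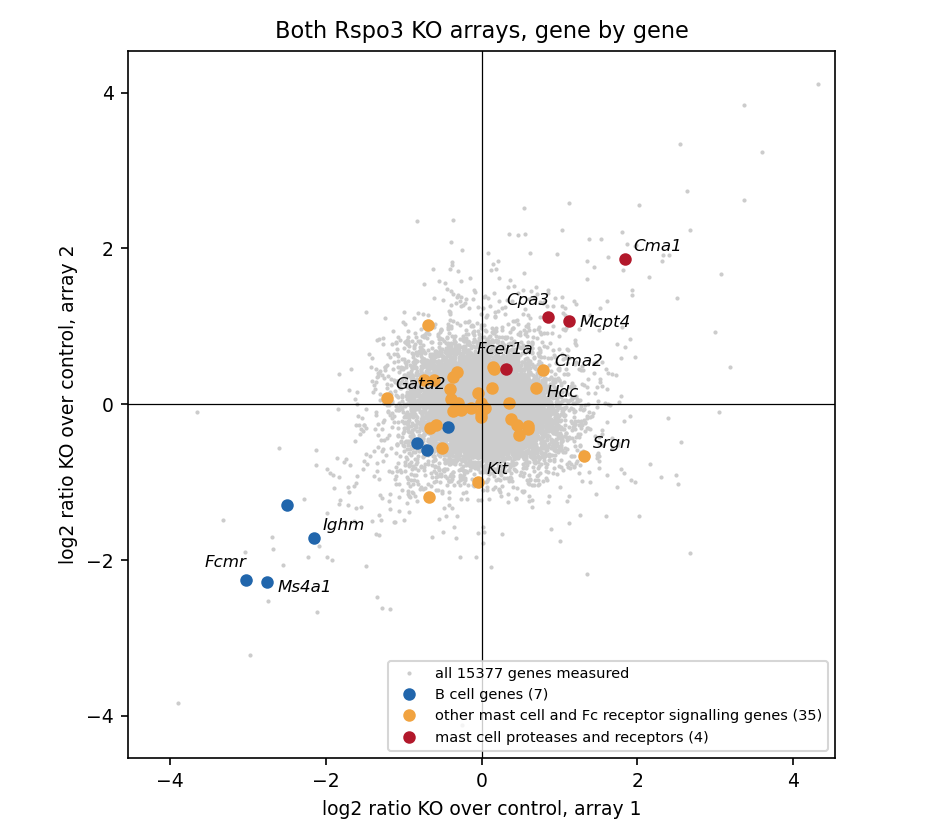
Log2 ratio of *Rspo3* KO over control on array 2 against array 1 for all 15377 measured genes (grey), the 4 measured proteases and receptors (red), 35 other mast cell and receptor signalling genes (orange) and 7 B cell genes (blue). *Cma1*, *Mcpt4* and *Cpa3* lie in the upper right, most orange points lie near the centre, and *Fcmr*, *Ms4a1* and *Ighm* lie in the lower left.

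*Cma1*, *Mcpt1*, *Mcpt2* and *Mcpt4* sit in a cluster of serine protease genes on mouse chromosome 14, and the signal was uneven along it. In gene order, the 15 genes of the cluster run from *Cma1*, *Cma2*, *Mcpt1*, *Mcpt2*, *Mcpt9*, *Mcpt4* and *Mcpt8* to *Ctsg* and the granzymes *Gzme*, *Gzmd*, *Gzmg*, *Gzmn*, *Gzmf*, *Gzmc* and *Gzmb*. Only *Cma1*, *Mcpt4* and *Gzmb* were above background in all 4 channels. *Ctsg*, cathepsin G of neutrophils and mast cells, gave 0.30 and 0.50 (limma adjusted p = 1.0), and *Gzmb*, a granzyme of cytotoxic lymphocytes, gave -0.04 and 0.37 (limma adjusted p = 1.0). *Mcpt1*, *Mcpt2* and *Mcpt9* lie between *Cma1* and *Mcpt4*, and the latter 2 were above background in no channel. The granzymes from *Gzme* to *Gzmc* and *Mcpt8* were not above background either.

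**Figure D4:**
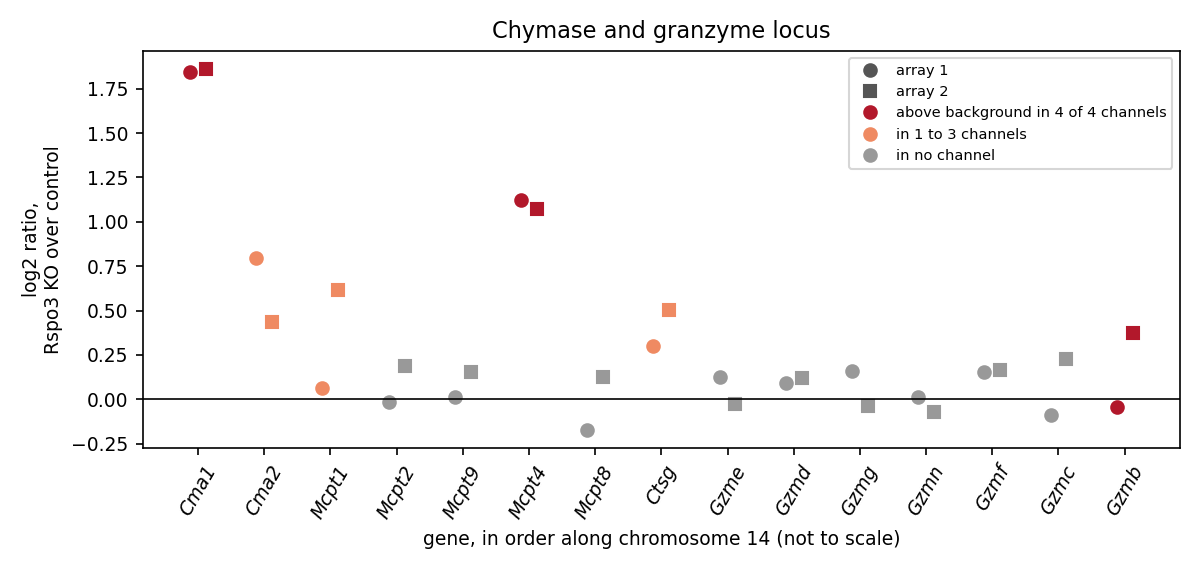
Log2 ratio of *Rspo3* KO over control for the 15 genes of the chymase and granzyme cluster, in gene order along chromosome 14 and not to scale, circles for array 1 and squares for array 2. With these ratios, after normexp and loess, *Cma1* near 1.85 and *Mcpt4* near 1.1 stand above the genes between and beside them. The software's ratios, which order the genes otherwise, are not drawn. Grey symbols are genes above background in no channel.

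The basophil markers *Mcpt8* and *Cd200r3* were above background in no channel of the *Rspo3* KO arrays, and *Prss34*, a basophil protease, only in the KO channel of array 2, with log2 ratios of -0.10 and 0.07. Of 10 listed basophil genes, 3 were measured, and 2 of these were *Cpa3* and *Fcer1a* themselves. The part of basophils in the values of these 2 shared genes was not tested.

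The log2 ratio pattern of each measured member was compared with all measured genes by Euclidean distance over the 2 arrays. The nearest genes to *Cma1* were *Cwh43* (1.87 and 2.05), *Ddah1* (1.97 and 2.03), *Wdfy1* (1.98 and 2.04), *Tigar* (1.80 and 2.21) and *Sfrp1*, a secreted Wnt antagonist (2.15 and 1.63). The nearest to *Mcpt4* were *Rtp4*, *Inpp5f*, *Kalrn*, *Ccl28* and *Abcd3*, the nearest to *Cpa3* were *Jchain*, *Armc9*, *Adat2*, *Angptl4* and *Ccn3*, and the nearest to *Fcer1a* were *Cd1d1*, *Vat1*, *Relch*, *Nxph3* and *Dpp10*. None of these 20 genes was on the mast cell lists. With 2 arrays, nearness says only that the 2 ratios were of like size.

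Markers of other cell types also differed between KO and control, and their part in the values of the proteases was not tested. Below 0 on both arrays were 23.9% of all measured genes and all 7 measured B cell genes of 10 listed. The median of these B cell genes was -1.89. 3 of them were called lower by limma, against 0.111% of all genes, namely *Ms4a1*, the B cell antigen CD20 (-2.75 and -2.27, adjusted p = 0.0127), *Fcmr*, a receptor for IgM (-3.02 and -2.25, adjusted p = 0.0134), and *Ighm*, the IgM heavy chain (-2.15 and -1.72, adjusted p = 0.0249). The defining genes *Cd79a*, *Blk* and *Pax5* were not measured. The summed signal of the measured B cell genes was 2275 and 2097 in the KO channels and 10985 and 6450 in the control channels, in intensity units. Of 6 measured genes of cytotoxic lymphocytes, 3 were below 0 on both arrays and none above, and *Cd8b1* passed 1.5-fold downward with -1.90 and -0.91 (limma adjusted p = 0.213).

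Macrophage, smooth muscle and fibroblast genes had small medians above 0. Over all measured genes, 20.3% were above 0 on both arrays and 23.9% below. Of 10 measured macrophage genes, 6 were above 0 on both arrays and 1 below, their median was 0.22, their summed signal was 18572 and 16342 in KO against 17117 and 13818 in control, and *Adgre1*, which encodes F4/80, passed 1.5-fold with 0.72 and 0.66 (limma adjusted p = 0.737). Of 9 measured smooth muscle genes, 5 were above 0 on both arrays and none below, with a median of 0.24 and a summed signal of 192916 and 199453 in KO against 177895 and 188564 in control. Of 10 measured fibroblast genes, 3 were above 0 on both arrays and none below, with a median of 0.29 and a summed signal of 127481 and 139589 against 107653 and 110934. The 5 measured epithelial genes had opposite signs on the 2 arrays, with a median of -0.01, and the 4 measured eosinophil genes had a median of 0.06. Limma called none of these macrophage, muscle, fibroblast, epithelial or eosinophil genes. By limma 1 macrophage gene and no other had an unadjusted p under 0.05, as had 715 of all 15377 measured genes.

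In sorted epithelial cells, *Cma1* was the only protease of the set well above background. Probe A_51_P514035 had a log2 signal of 6.79 in Axin2+ and 7.78 in Axin2- cells on array 1, and of 6.99 in Axin2+ and 7.97 in Axin2- cells on array 2. All 4 channels were well above background, and both Axin2- channels were above both Axin2+ channels. The log2 ratio of Axin2+ over Axin2- cells was -0.99 on array 1 and -0.98 on array 2, so that Axin2- cells had 1.98 times the signal. The intron-spanning probe gave -0.39 and -0.38, with 3 of 4 channels above background and the Axin2+ channel of array 1 below it. The software's ratios were -1.81 and -1.88 for the former and -1.88 and -1.52 for the latter. These arrays hold the same 2 pools, so the match between them shows the technical spread and there is no replicate check.

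*Fcer1a* was above background in both Axin2- channels and in the Axin2+ channel of array 1, with log2 ratios of -0.02 and -0.16. *Mcpt1*, *Mcpt2*, *Mcpt4*, *Tpsb2*, *Cpa3* and *Ms4a2* were above background in none of the 4 channels of the Axin2 arrays. *Mcpt4* and *Cpa3*, the members that were higher with *Cma1* in the *Rspo3* KO colon, thus gave no detectable signal in the sorted pools. In the control colon channels, where *Cma1* was above background, *Mcpt4* was above it and *Cpa3* was not. A missing signal near this limit does not tell the source of the *Cma1* signal, which was not tested. Of all 8 genes, 3 were below 0 on both arrays and 5 had opposite signs, whereas 41.7% of all measured genes were below 0 on both. The median log2 ratio of the 8 was -0.04, against -0.00 for all measured genes. *Cma1* was the only member past 1.5-fold downward, as were 6.92% of all measured genes, and no member passed it upward, as did 7.86%. With the software's ratios *Fcer1a* and *Tpsb2* passed it downward too, as did 15.4% of all measured genes.

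**Figure D5:**
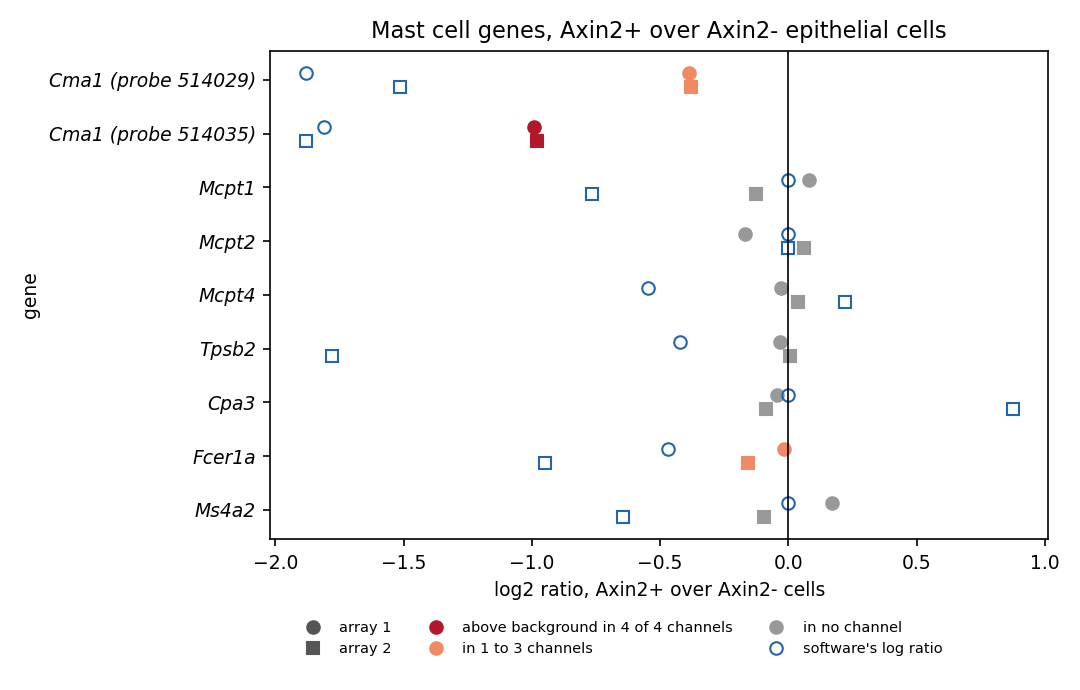
Log2 ratio of Axin2+ over Axin2- epithelial cells for each of the 9 probes, circles for array 1 and squares for array 2, filled for ratios after normexp and loess and open for the software's ratios. Both *Cma1* probes lie to the left of 0 on both arrays, and the grey symbols of 6 genes above background in no channel lie near 0.

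Genes outside the set also differed between the sorted pools, again without a replicate check. Over all 15887 measured genes, 41.7% were below 0 on both arrays, 6.92% passed 1.5-fold downward and 7.86% upward. Of 14 measured genes among other mast cell genes, 9 were below 0 on both Axin2 arrays, 5 passed 1.5-fold downward and 1 upward. The 3 largest falls were *Tph1*, which makes serotonin (-2.27 and -2.39), *Tpsg1*, a transmembrane tryptase (-0.55 and -0.85), and *Srgn*, the granule proteoglycan (-0.66 and -0.61), and the rise was *Hpgds*, a prostaglandin synthase (0.39 and 0.80). *Tph1* and *Hpgds* are also genes of the epithelium, made by enteroendocrine and tuft cells. Which cells of the sorted pools made the other listed genes was not tested, so the list names do not identify cells here. Of 12 measured IgE receptor signalling genes, 8 were below 0 on both arrays, and *Inpp5d* (-0.72 and -0.75) and *Syk* (-0.60 and -0.69) passed 1.5-fold downward. In lipid mediator and amine synthesis, 5 of 8 measured genes passed 1.5-fold downward, besides *Tph1* led by *Alox5* (-1.69 and -1.45) and *Ptgs1* (-1.58 and -1.19). Of 14 measured growth and recruitment genes, 10 were below 0 on both arrays and 2 above. Of these, *Il4ra* (-0.59 and -0.70) passed 1.5-fold downward. Of 6 measured smooth muscle genes, 3 were below 0 on both arrays and 1 above. *Mylk* (-0.94 and -1.03) and *Tpm2* (-0.74 and -0.82) passed 1.5-fold downward. Of 7 measured cytotoxic lymphocyte genes, 6 were below 0 on both arrays, and the chemokine *Ccl5* (-1.95 and -1.52), *Gzma* (-1.19 and -1.02) and *Nkg7* (-0.65 and -0.79) passed 1.5-fold downward. *Siglecf*, the only measured eosinophil gene, had -0.65 and -0.84. Of 6 measured B cell genes, 5 were below 0 on both arrays and none passed 1.5-fold. Of 5 measured macrophage genes, 2 were above 0 on both arrays and 2 below, and none passed 1.5-fold. Of 4 measured fibroblast genes, 1 was above 0 on both arrays and 3 below, and none passed 1.5-fold. Of 10 measured epithelial genes, 3 were above 0 on both arrays and 6 below, and 4 passed 1.5-fold, all downward. The 3 largest falls were *Krt20*, a keratin of surface enterocytes (-3.01 and -2.77), *Car1* (-1.82 and -1.95) and *Krt8* (-0.64 and -1.03). Whether other cells in the sorted pools carried the *Cma1* signal was not tested.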

How the data were processed

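RNA was measured on 4 Agilent mouse arrays with 2 dyes each, 2 arrays per comparison. Per the file headers, the scans were read with Feature Extraction 11.5.1.1. Its signal and local background intensities were deposited for either dye, together with its log10 ratio (Cy5 divided by Cy3, corrected for background and dye bias). The series' value table, as deposited by the authors, repeats these log10 ratios. The authors also combined ratios with error weights in other software, which was approximated as an alternative.

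Intensities were corrected here with limma 3.58.1 in R 4.3.3 (normexp, offset 50, fitted without spots flagged for uneven background), and loess was then fitted to the log2 ratios of each array, with control and outlier spots given no weight. Ratios were turned to *Rspo3* KO or Axin2+ as numerator. The brightest probe stood for its gene. Of 41174 probes, 33733 were named through RefSeq (27675 by accession, 5587 by symbol, 471 by synonym) and the others kept the array's name. Positions of probes are those of mm9 and of promoters those of GRCm38.p6.

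The *Rspo3* KO arrays were tested against 0 with lmFit and eBayes and Benjamini-Hochberg adjustment over 15377 genes. The fit has 1 residual degree of freedom and 6.76 prior ones. It was tested on simulated data. The 4 of the 8 genes that were measured stayed in this fit and in its counts, but no p-value is given for them, since they were chosen with this contrast known. No test was run on the Axin2 arrays. Where a probe was not above background in either channel of a group, a fold is taken against the higher of the probe's signal and the array's lowest signal above background. Such a fold holds for the main background correction only. Promoters were aligned with Biopython 1.88.

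The 8 genes and the gene lists were chosen with earlier results of these data known. Genes named are the 8 genes, *Rspo3*, *Kit*, *Hdc*, *Gata2*, *Tpsab1*, *Fcer1g*, *Mcpt8*, *Prss34*, list genes called by limma, the 3 largest rises and falls of a list past 1.5-fold on the mean with the same sign on both arrays, and the 5 nearest genes to each measured member. *Cd200r3*, *Kitl*, *Ctsg*, *Gzmb* and the other genes of the chymase cluster, and unmeasured B cell genes, were named outside this rule. Alternatives tried were other background corrections, median centring, the software's ratios, the series' table, other filters and probe summaries, error weights, a fit of all 4 arrays with a dye term, and each array left out.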

Additional observations from a re-analysis of the deposited data

How the results depend on the processing

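No paired analysis was possible because a block would have nothing further to pair: each array's ratio is already taken within 1 pair of mice, or within the same pair of pools, so the reported values are themselves paired. *Cma1* kept its direction under the alternatives for which its value is given below, and under these no member's log2 ratio past 1.5-fold reversed. Error weights were run for the *Rspo3* KO comparison only, and the filters and the fit of all 4 arrays bear on counts of genes, not on the members' ratios. For *Rspo3* KO over control, the mean log2 ratio of *Cma1*, 1.85 as reported, was 1.94 without background subtraction, 2.04 with an offset of 16, 1.23 with the background fitted to all spots, 1.94 with median centring, 1.64 as a mean over its probes, 2.39 with the software's ratios, the series' table and error weights alike, and 1.84 to 1.86 with either array left out. The median of the 8 genes, 0.36 as reported, was 0.60 with an offset of 16, 1.68 with the software's ratios or the series' table, and 0.28 to 0.53 with either array left out. The members past 1.5-fold, 3 as reported, were 6 with the software's ratios or the series' table. Over these alternatives the mean log2 ratio of *Mcpt4* lay between 0.63 and 1.65 and that of *Cpa3* between 0.59 and 3.39. For Axin2+ over Axin2- cells, *Cma1*, -0.99 as reported, was -1.15 without background subtraction, -1.33 with an offset of 16, -0.97 with median centring, -0.69 over its probes, -1.85 with the software's ratios or the series' table, and -0.99 to -0.98 with either array left out. The median, -0.04 as reported, was -0.094 with an offset of 16, -0.16 with median centring, -0.35 with the software's ratios or the series' table, and -0.090 to -0.030 with either array left out, and the members past 1.5-fold, 1 as reported, were 3 with the software's ratios or the series' table.

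The genes limma called, 37 as reported, were 71 without background subtraction, 129 with an offset of 16, 1 with the background fitted to all spots, 8 with median centring, 131 with the software's ratios or the series' table, 0 over a gene's probes (742 at an unadjusted p under 0.05), 0 with no filter on dim probes (1205 at an unadjusted p under 0.05), and 282 with all 4 arrays and a dye effect, a fit that takes the spread of the technical Axin2 arrays into account. Of other mast cell and receptor signalling genes, 0 were called as reported (3 had an unadjusted p under 0.05), against 1 by the software's ratios or the series' table (*Cma2*, adjusted p = 0.0168) and 1 with all 4 arrays (*Smpx*, adjusted p = 0.0313). Genes past 1.5-fold were 665 in the *Rspo3* KO comparison as reported, 362 with the background fitted to all spots and 1477 with the software's ratios or the series' table. In the Axin2 comparison they were 2348 as reported, 1090 with median centring and 5186 with the software's ratios or the series' table. The causes of these differences were not tested. Signal over background limits what can be read for all members but *Cma1* and *Mcpt4* in colon, and for all members but *Cma1* in sorted cells.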
